A study of Mus musculus with 12 samples.

Results

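The regions described here are peaks of N6-methyladenosine (m6A) that stand apart from each other and are annotated to the 3′ untranslated region (UTR) of the same mouse liver gene. They were chosen from the authors' deposited peak table by position alone, as peaks with a gene name, a 3′ UTR annotation and a width of at most 1000 bp, in genes with at least 2 such peaks that do not overlap. The rule found 2531 peaks in 1106 genes, of 17503 peaks in 10277 genes with a name in the whole table. The gene's strand could be established for 1099 of these genes, and in each of them the most upstream of these narrow peaks, on the side of the coding region, was set against the most downstream one, on the side of the RNA's end. A 3′ UTR peak above the width limit was listed in 154 of the 1099 genes and was not paired; it reached further upstream than the pair in 98 genes and further downstream in 36. The other 7 genes met the rule but had no known strand and enter no comparison below.

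m6A is laid down on nascent mRNA by a methyltransferase complex whose catalytic subunit is METTL3. In mammals it is most frequent around the stop codon and in the 3′ UTR, the part of the message that follows the coding region and carries binding sites for microRNAs and RNA-binding proteins. Readers of the YTH family bind the mark and, among other functions, direct messages to decay.

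The study compared livers of C57BL/6 mice that were wild type with livers labelled Mettl3-deficient, and its title places them in the postnatal period. The labels give neither the age, nor the allele or any Cre driver, nor whether mice were pooled or the replicates came from separate mice. There were 12 libraries made from polyadenylated RNA, in 4 groups of 3 replicates, precipitated with an anti-m6A antibody or kept as input for each genotype. Per replicate values were not used here, so every peak below carries the authors' single log2 fold change and false discovery rate (FDR), and the spread between mice is unknown. Because no value per mouse enters, genes are the units counted, genes are not replicates of a condition, and no p-value is given. The table's header does not name the numerator of the fold change. A negative value likely means less m6A enrichment in Mettl3-deficient liver, a reading that rests on the design alone, and all differences below would turn sign under the other reading. A peak is called when its deposited FDR is 0.05 or below, and intervals in brackets are 95% intervals over peaks or genes that cover counting error only (Wilson for shares, order statistics for medians).

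Within a gene, the downstream peak usually had the higher value. The upstream peaks had a median log2 fold change of -1.10 (-1.17 to -1.01, n = 1099) and the downstream peaks one of 0.50 (0.45 to 0.54). The difference within the gene, downstream minus upstream, had a median of 0.75 (0.63 to 0.93), with quartiles of -0.10 and 1.93. In the 945 genes without a 3′ UTR peak above the width limit it was 0.85 (0.65 to 1.04). The downstream value was higher in 789 genes, lower in 306 and equal in 4, which makes it higher in 71.8% (69.1 to 74.4). A difference of at least 1 was seen in 501 genes, and a difference of -1 or below in 105. The extremes were -6.69 and 5.26, so single genes could go far in either direction. The median was above 0 on each of the 20 chromosomes with pairs, from 0.315 on chromosome 13 (42 pairs) to 1.695 on chromosome 19 (40 pairs).

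**Figure D1:**
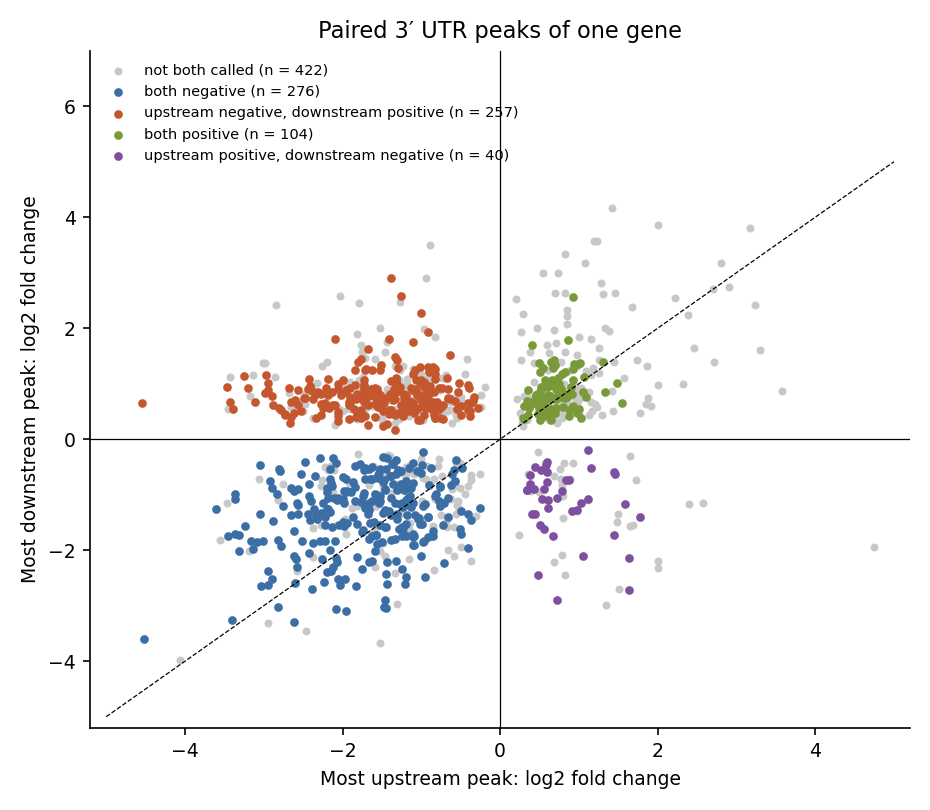
Each point is 1 gene, with the authors' log2 fold change of its most upstream 3′ UTR peak on the horizontal axis and of its most downstream peak on the vertical axis; grey points are genes in which at least 1 of the peaks was not called, and the dashed line marks equal values. The upper left area, with an upstream negative and a downstream positive peak, holds 257 genes with both peaks called and the lower right area 40.

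The upstream peaks were mostly negative and the downstream peaks were split. Over all listed peaks 76.2% were called, 40.6% as negative and 35.6% as positive. Among 3′ UTR peaks of at most 1000 bp these shares were 76.5%, 43.2% and 33.4%. Of the upstream peaks, 907 (82.5%) were called, 694 of them negative and 213 positive. Of the downstream peaks, 778 (70.8%) were called, 368 negative and 410 positive. The negative share of called peaks was therefore 76.5% upstream (73.6 to 79.2) and 47.3% downstream (43.8 to 50.8). In the 4465 genes whose narrow 3′ UTR peaks did not form a separate pair, 52.5% of 3543 called peaks were negative (50.9 to 54.1), which lies between the upstream and the downstream share. The sizes differed less than the signs. Called negative peaks had a median of -1.50 upstream (694 peaks) and -1.215 downstream (368 peaks), and called positive peaks had medians of 0.67 (213 peaks) and 0.75 (410 peaks).

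Both peaks of the pair were called in 677 genes, and in 297 of these (43.9%, 40.2 to 47.6) they had opposite signs. Opposite signs ran mostly one way, with 257 genes negative upstream and positive downstream (38.0%, 34.4 to 41.7) against 40 genes positive upstream and negative downstream (5.91%, 4.37 to 7.95). In the larger of these sets the upstream median was -1.39 and the downstream median 0.73, and their median difference was 2.22 on the log2 scale. In the 40 genes with the reverse order the medians were 0.64 upstream and -1.06 downstream. The imbalance between these orders restates the larger share of negative peaks upstream in the same 677 genes. Both peaks were negative in 276 genes (40.8%) and both positive in 104 (15.4%). Where both were negative, the downstream peak lay nearer to 0 in 179 genes and further below 0 in 97. After an upstream negative peak the downstream peak was positive in 48.2% of 533 genes (44.0 to 52.5), and after an upstream positive peak it was negative in 27.8% of 144 (21.1 to 35.6). Across the 1099 genes the values of the paired peaks had a Pearson correlation of 0.314 and a Spearman correlation of 0.276. These are given as a description only: the paired values come from the same libraries, and RNA levels were not examined.

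Genes with peaks between the outer pair showed values closer to the upstream end. A middle peak was present in 169 genes, 219 middle peaks in all, of which 178 were called and 67.4% of those were negative (60.2 to 73.9). In these genes the median was -1.18 upstream, -0.92 over the middle peaks and 0.43 downstream, where the interval of the last reached from -0.57 to 0.51. With the median of a gene's middle peaks, 61 genes went up step by step from upstream to downstream and 14 went down step by step. The middle value lay below both outer values in 53 genes, above both in 39 and level with an outer peak in 2.

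**Figure D2:**
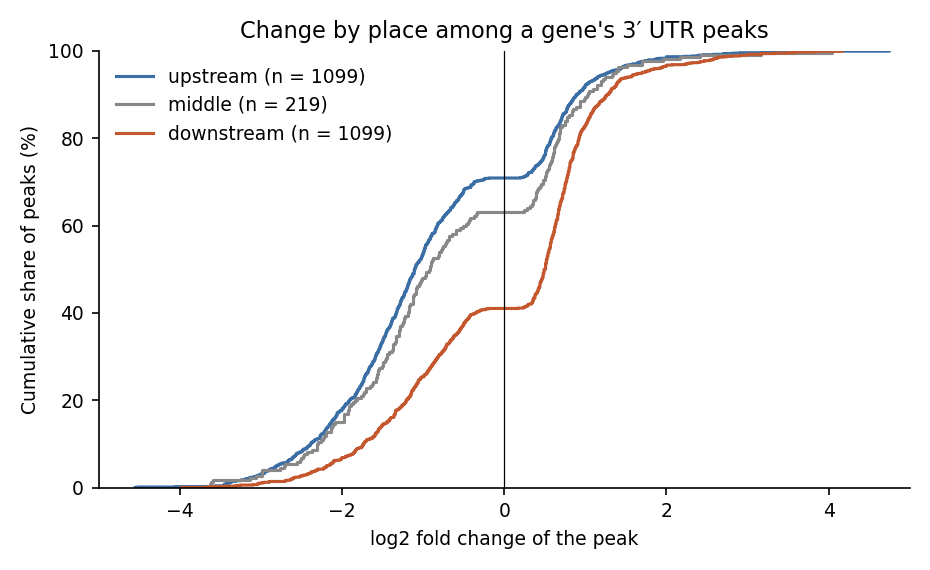
Cumulative share of peaks, in percent, against the log2 fold change of the peak, for the upstream (n = 1099), middle (n = 219) and downstream (n = 1099) peaks of the genes. The curves are flat around 0, where few peaks are listed, and the downstream curve lies to the right of the other curves at that point.

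The place of the downstream peak relative to the end of the gene varied, and the sign of the change went with it. Of the genes with pairs, 1092 matched a RefSeq gene of assembly GRCm38.p6, the same build as mm10, and distances are from the peak's downstream edge to the RefSeq gene end, measured along the genome. Peaks annotated to a gene but lying before its RefSeq start, as in Epo, Olfr56 and Fgfr2, therefore also count as before the end. The downstream peak ended a median of 30 bp before the gene end and the upstream peak a median of 2181 bp before it. In 471 genes (43.1%) the downstream peak ended 0 to under 100 bp before the gene end, in 189 of them exactly at it, while 18 upstream peaks (1.65%) ended in that stretch. A further 208 downstream peaks (19.0%) reached past the RefSeq end.

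Called member peaks that ended 0 to under 100 bp before the gene end were negative in 34.0% of 377 (29.4 to 38.9). The share was 57.4% at 100 to under 300 bp (44.9 to 69.0, 61 peaks), 69.7% at 300 to under 1000 bp (64.0 to 74.8, 277 peaks) and 75.9% at 1000 to under 2000 bp (71.0 to 80.2, 336 peaks). It was 80.5% at 2000 to under 5000 bp (76.4 to 84.1, 405 peaks) and 74.0% at 5000 bp or more (68.2 to 79.0, 250 peaks). Peaks past the end were negative in 43.6% (37.2 to 50.2, 218 peaks). Negative peaks were thus in the minority at and beyond the annotated end and in the majority from 300 bp before it.

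At matched distance the difference between upstream and downstream peaks was smaller. From 300 to under 1000 bp, 73.9% of 157 called upstream peaks were negative (66.5 to 80.1), against 62.0% of 71 called downstream peaks (50.3 to 72.4). From 2000 to under 5000 bp the shares were 83.2% of 291 upstream (78.4 to 87.0) and 67.7% of 65 downstream (55.6 to 77.8), and these intervals do not overlap. In the classes of 1000 to under 2000 bp and of 5000 bp or more, the intervals of upstream and downstream peaks overlapped. The few upstream peaks that ended 0 to under 100 bp before the gene end were negative in 2 of 15 called (13.3%, 3.74 to 37.9). Genes without a separate pair also had a lower share at the end than further inside: 36.9% of 1232 called peaks were negative at 0 to under 100 bp (34.3 to 39.7), 71.0% of 386 at 300 to under 1000 bp (66.3 to 75.3) and 79.8% of 357 at 1000 to under 2000 bp (75.4 to 83.7).

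**Figure D3:**
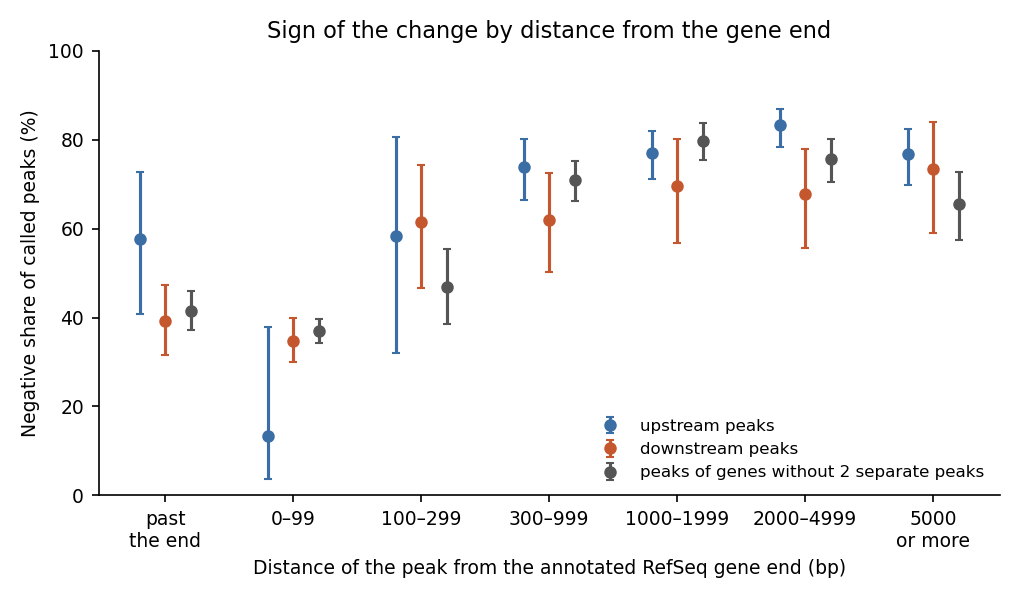
Negative share of called peaks, in percent with 95% Wilson intervals, by the distance in bp from the peak's downstream edge to the annotated RefSeq gene end, for upstream peaks, downstream peaks and narrow 3′ UTR peaks of genes without a separate pair. At 0 to under 100 bp the shares are 13.3%, 34.7% and 36.9% for these sets in that order, and at 1000 to under 2000 bp they are 77.0%, 69.6% and 79.8%.

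When the pairs were sorted by where the downstream peak lay, the difference was larger with a peak at the gene end. In the 471 genes with a downstream peak 0 to under 100 bp before the end, the median difference was 1.25 (0.98 to 1.41) and the downstream value was higher in 79.8%. Of the 311 such genes with both peaks called, 146 (46.9%) were negative upstream and positive downstream, 98 (31.5%) were negative at both places and 13 had the reverse order. In the 350 genes whose downstream peak lay 300 bp or more before the end, the median difference was 0.42 (0.32 to 0.60) and the downstream value was higher in 64.9% (59.7 to 69.7). This set includes genes such as Epo, Olfr56 and Fgfr2, whose peaks lie outside the RefSeq gene. Of the 206 of these with both peaks called, 44 (21.4%) were negative and then positive, 127 (61.7%) were negative at both places and 10 had the reverse order. The upstream medians of these sets were nearly level, at -1.16 and -1.17, whereas the downstream medians were 0.59 and -0.665. In the 208 genes whose downstream peak passed the RefSeq end, the upstream median was -0.675, the downstream median 0.55 and the median difference 0.59 (0.30 to 0.99).

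The distance between the peaks also went with the size of the difference, up to a few kilobases. The gap had a median of 1228 bp (quartiles 475 and 2858). The median difference was 0.36 (0.08 to 0.50) in 120 pairs less than 200 bp apart, 0.545 (0.31 to 0.92) in 168 pairs 200 to under 500 bp apart and 0.99 (0.67 to 1.30) in 182 pairs 500 to under 1000 bp apart. It was 1.16 (0.53 to 1.43) in 232 pairs 1000 to under 2000 bp apart and 1.32 (0.95 to 1.64) in 241 pairs 2000 to under 5000 bp apart. Intervals of neighbouring classes up to 5000 bp overlap, while those of the nearest and of the 2000 to under 5000 bp pairs do not. The share of genes with a negative upstream and a positive downstream peak was 13.3% of 75 genes with both peaks called among the nearest pairs (7.41 to 22.8) and 52.7% of 131 at 2000 to under 5000 bp (44.2 to 61.0). Pairs 5000 bp or more apart stood at 0.405 (0.22 to 0.75, 156 pairs), an interval that lies below that of the 2000 to under 5000 bp pairs. Of those, 105 had both peaks annotated to the same transcript and 108 lay inside the RefSeq span. Neither label shows that the peaks share an RNA. The outer peaks of Fgfr2, for example, are annotated to the same transcript but lie 2594268 bp apart and outside its RefSeq span.

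**Figure D4:**
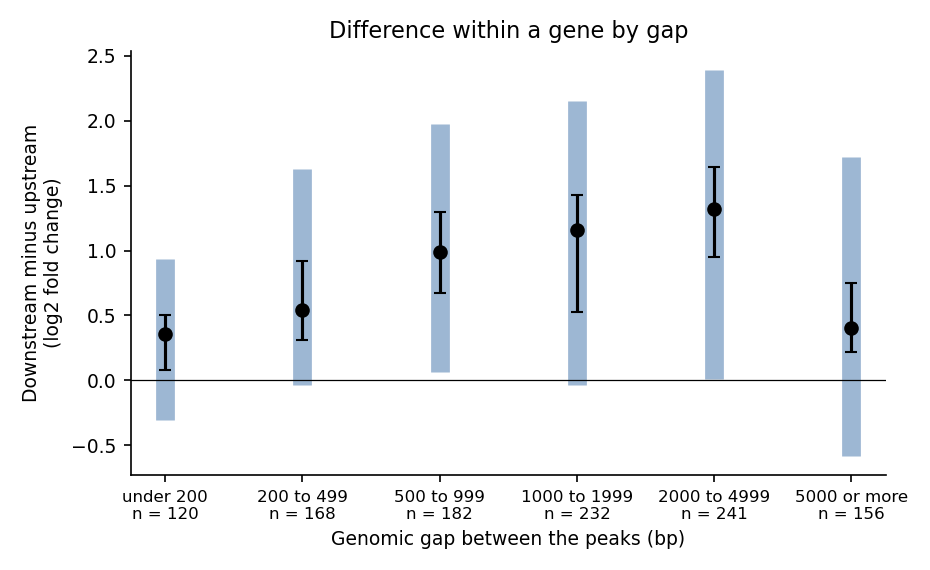
Downstream minus upstream log2 fold change by the genomic gap between the peaks in bp; dots are medians, thin bars their 95% order-statistic intervals, and wide bars the quartiles over genes. The median goes from 0.36 in the nearest pairs to 1.32 at 2000 to under 5000 bp and is 0.405 in pairs 5000 bp or more apart.

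Width and evidence differed between the places as well. Upstream peaks had a median width of 330 bp and a median log10 FDR of -6.52, against 270 bp and -2.88 for downstream peaks. In the 463 genes whose downstream peak was at least as wide as the upstream peak, the median difference was 0.30 (0.14 to 0.40) and the downstream value was higher in 61.8%. In the 636 genes with the wider peak upstream it was 1.19 (1.03 to 1.35). Where the downstream peak had the lower FDR of the pair (353 genes) the median difference was 0.01 (-0.11 to 0.11), with the downstream value higher in 50.7%, and where the upstream peak had it (744 genes) the median was 1.33 (1.17 to 1.47). The FDR belongs to the same change, and called negative changes were larger than positive ones, so the classes by FDR are not independent of the sign. The part of width and evidence in the difference was not tested. Peaks of another named gene overlapped 6 upstream and 9 downstream peaks, and without such pairs the median difference was 0.75. Another RefSeq gene overlapped 126 upstream and 193 downstream peaks (17.6% of the latter), and in the 879 pairs clear of other RefSeq genes the median difference was 0.92 (0.71 to 1.10).

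Peaks elsewhere in the same genes were set beside the pair. Of 258 called 5′ UTR peaks in member genes, 32.9% were negative (27.5 to 38.9), and of 211 called peaks in other exons 78.7% were (72.7 to 83.7). Where a gene had several called peaks of a kind, the one with the lowest FDR was taken in what follows. In 161 genes with both 3′ UTR peaks called and a called 5′ UTR peak, the medians were 0.67 in the 5′ UTR, -1.10 at the upstream and 0.44 at the downstream 3′ UTR peak. In 112 genes with a called exon peak, the medians were -1.345 in the exon, -1.375 upstream and -0.47 downstream. The exon peak had the sign of the upstream peak in 92 of these 112 genes and that of the downstream peak in 63. Where the outer peaks differed in sign, the exon peak took that of the upstream peak in 40 of 51 genes, while the 5′ UTR peak took the upstream sign in 37 and the downstream sign in 39 of 76 genes. Most called exon peaks were negative, as were 86.5% of upstream peaks in the 297 pairs of opposite sign. Equal signs of exon and upstream peak are therefore frequent even without a link within the gene.

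Transcription factors of the hepatocyte included genes of both kinds. Of 20 genes in that list, 9 had a narrow 3′ UTR peak and 5 were members: Hnf4a, Foxa3, Onecut2, Prox1 and Rxra. Of all 5571 genes with a narrow 3′ UTR peak, 1106 were members. Both peaks were called in 4 of the 5 members of the list, 2 being negative and then positive and 2 negative at both places. The list's median difference of 1.89 (0.75 over all members) is the value of 1 gene, Prox1, whose downstream peak was not called. Medians in other lists were 1.05 (fatty acid and glucose metabolism), 0.4 (chromatin regulators), 0.19 (RNA decay) and -0.24 (insulin and growth signalling), each from few genes. Hnf4a, a nuclear receptor central to hepatocyte identity, has its peaks at chr2:163570122-163570601 and chr2:163572700-163572910 on mm10, both annotated 3′ UTR. For them the authors' deposited table gives -2.66 upstream and 0.67 downstream, with log10 FDR of -434 (the lowest value in the table) and -56.3. The downstream peak of Hnf4a reaches 3 bp past the RefSeq end. Foxa3 encodes a forkhead factor of the hepatocyte, and its peaks at chr7:19013883-19014751 and chr7:19013284-19013464 had -2.81 and 0.57 in the authors' deposited table. The gap between them is 418 bp, and the downstream one ends 1 bp before the gene end. Rxra, the shared partner of many nuclear receptors, was negative at both places: the authors' deposited table gives -1.38 and -1.82 for peaks 119 bp apart that end 3080 and 2572 bp before the gene end. A wider Rxra peak of 1106 bp further downstream had -1.53 in the authors' deposited table. Onecut2 was also negative at both places, with -0.97 and -1.84 in the authors' deposited table. Prox1 had -1.50 upstream and a downstream value of 0.39 that was not called (authors' deposited table).

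Of 19 genes of fatty acid and glucose metabolism 5 were members, all with both peaks called, 3 negative at both places and 2 negative and then positive, patterns that over all 677 pairs with both peaks called made up 40.8% and 38.0%. Acaca and Acacb encode the acetyl-CoA carboxylases that make malonyl-CoA. The peaks of Acacb, 298 bp apart, had -2.41 and -1.46 in the authors' deposited table, and the downstream one ends at the RefSeq gene end. Acaca has its upstream peak 252344 bp from the downstream one, at -1.24 and -1.59 in the authors' deposited table. These peaks are annotated to different transcripts, so they are not shown to lie in the same UTR. A middle Acaca peak at -2.12 ends 1378 bp before the gene end, at which the downstream one ends. G6pc, the glucose-6-phosphatase of glucose release, had -2.11 at chr11:101376324-101377009 and -1.06 at chr11:101377575-101377903 in the authors' deposited table. Acsl1, which activates long-chain fatty acids, went from -1.0 to 0.71, and the fatty acid elongase gene Elovl6 from -1.28 to 0.48, both in the authors' deposited table. Of the sterol list only Insig1, a sterol-regulated anchor of the SREBP pathway, was a member (1 of 19 genes). Its peaks, 58 bp apart, had -0.41 and -1.96 in the authors' deposited table, so the downstream one was the more negative.

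Receptor and stress genes gave examples of each order. Of 17 genes of insulin and growth signalling 3 were members, and all had both peaks called. Insr, the insulin receptor, had values of -2.14 and -2.38, and Met, the receptor of hepatocyte growth factor, had -3.31 and -2.02 in the authors' deposited table. The downstream peak of Met ends at the RefSeq gene end and was negative, with a log10 FDR of -116 in the authors' deposited table. Egfr, the receptor of epidermal growth factor, had the reverse order in the authors' deposited table, with 0.61 at a peak 3 bp before the RefSeq gene end and -1.23 at a peak that ends 3891 bp past it. This order holds for its narrow peaks only, since the authors' deposited table lists a further Egfr 3′ UTR peak of 1676 bp upstream of both, at -1.68 with a log10 FDR of -83.3. Xbp1, a transcription factor of the unfolded protein response, had -2.09 at chr11:5524850-5525297 and 0.62 at chr11:5525714-5525893, with log10 FDR of -434 and -19.3 (authors' deposited table). In the clock list 1 of 14 genes was a member, Hlf, at -1.34 and -1.15 in the authors' deposited table.

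Regulators of RNA and chromatin were mixed too. Of 25 genes of RNA decay and the poly(A) machinery 4 were members, 3 of them with both peaks called. Ago2, the slicing Argonaute protein of microRNA silencing, had -1.43 and -2.60 in the authors' deposited table. Its paralog Ago1 was positive at both places, with 1.06 and 1.13 in the authors' deposited table. Cnot2, a subunit of the CCR4-NOT deadenylase complex, had -1.22 and -0.91, the latter 1 bp before the gene end (authors' deposited table). Among chromatin regulators 3 of 15 were members. Kmt2d, a histone H3 methyltransferase, had 4 separate peaks which from upstream to downstream had -1.0, 0.55, 1.19 and 1.07 in the authors' deposited table, the value of 0.55 not being called. Kmt2a, of the same enzyme family, had -1.01 and -0.61 (authors' deposited table). The m6A writer list had 1 member of 8, Cbll1, at -1.83 and at a value of 0.81 that was not called, in the authors' deposited table. None of the 12 m6A readers and erasers, 21 secreted liver proteins, 20 genes of Wnt, Notch and TGF-beta signalling, 7 stellate, 7 leukocyte or 7 cholangiocyte markers was a member, and of 8 endothelial markers Flt1 alone was. Membership requires a narrow 3′ UTR peak, which 5, 9, 10, 3, 4, 1 and 3 genes of these lists had, in the same order. The stress list had 2 members of 14, Xbp1 and Trib1, of which Trib1 did not have both peaks called. The cell cycle list had 2 of 12, Ccnd2 and E2f1, neither with both peaks called. Over the 17 lists, 117 of 245 genes had a narrow 3′ UTR peak and 28 were members, beside 1106 members among all 5571 genes with such a peak. Of the 28, 20 had both peaks called, of which 6 were negative and then positive, 12 negative at both places, 1 positive at both and 1 in the reverse order. Over all 1099 genes, 61.6% had both peaks called, and 38.0%, 40.8%, 15.4% and 5.91% of those had these patterns in the same order.

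**Figure D5:**
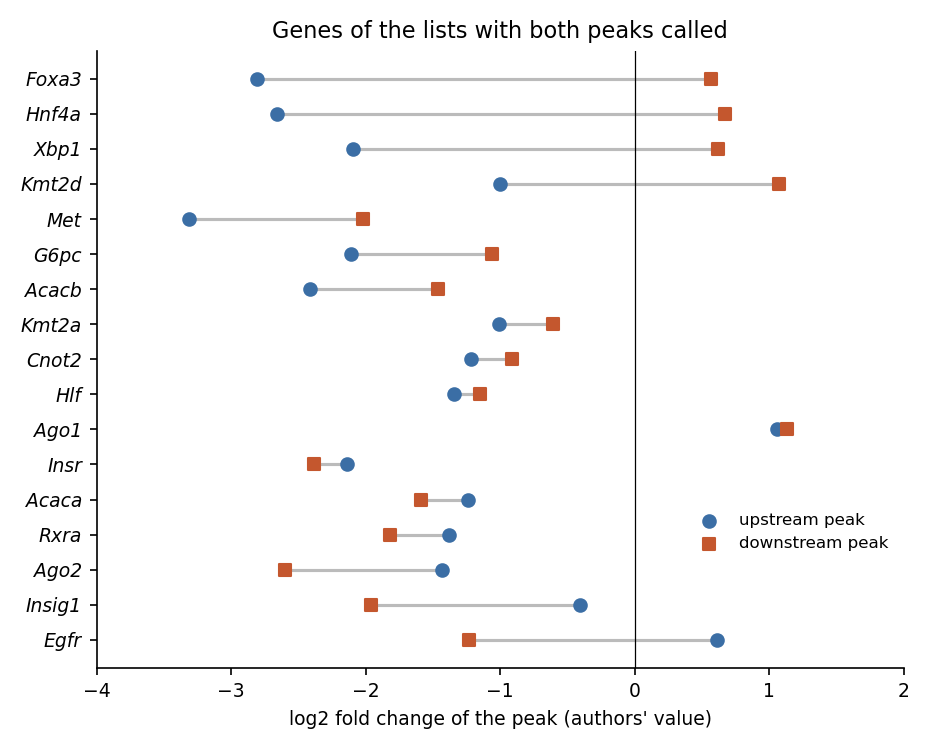
Authors' log2 fold change of the upstream peak (circles) and the downstream peak (squares) for genes of the functional lists with both peaks called, up to 3 per list by FDR, ordered by downstream minus upstream. Foxa3, Hnf4a, Xbp1 and Kmt2d cross from negative to positive, and Egfr is the only gene plotted that crosses the other way.

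Among genes with both peaks called, the largest differences came mostly from strongly negative upstream peaks. Mob3b, a MOB family gene, had -4.55 in a peak of 91 bp at chr4:34953865-34953955 and 0.66 at chr4:34952728-34953027, a difference of 5.21 in the authors' deposited table. Zfand2a, an arsenite-inducible zinc finger gene, followed with -3.46 and 0.94, where the downstream peak reaches 5 bp past the RefSeq end (authors' deposited table). Ermp1, an endoplasmic reticulum peptidase gene, had -3.25 and 1.14 in the authors' deposited table. Lgalsl had -2.97 and 1.16, Unkl -3.20 and 0.92, and Ank, which encodes a pyrophosphate regulator, -2.95 and 1.01 in the authors' deposited table. The downstream peaks of Lgalsl and Unkl had log10 FDR of only -1.71 and -1.33. A narrow peak overlapping the downstream Unkl peak had 0.65 with a log10 FDR of -9.49 (authors' deposited table). Iba57, a gene of mitochondrial iron-sulphur cluster assembly, had 4 separate peaks at -3.43, -0.78, -0.60 and 0.68 from upstream to downstream in the authors' deposited table, that at -0.60 not being called. The Iba57 values thus rose step by step, but the annotation does not show that these peaks share an RNA. Olfr56, with -1.39 and 2.91 in the authors' deposited table, belongs to the 8 largest differences by its annotation only, since both peaks lie outside the RefSeq span of the gene.

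Large differences the other way joined an upstream positive to a downstream negative peak. Gm15638, a long noncoding RNA gene, had 1.64 upstream and then -2.99, -1.97 and -2.71 in the authors' deposited table. Being noncoding, it has a 3′ UTR by the authors' annotation only. Exon peaks of Gm15638 further upstream had -1.39 and -1.74, with log10 FDR of -4.79 and -14.3 (authors' deposited table). Strbp, which encodes a spermatid RNA-binding protein, had 1.64 and -2.14 in peaks 13338 bp apart (authors' deposited table). Ddr2, a collagen receptor gene, had 1.77, 0.94 and -1.40 in the authors' deposited table, the last ending 269 bp past the RefSeq end. The peaks annotated to the erythropoietin gene Epo, at 0.72 and -2.89 in the authors' deposited table, lie 26163 bp apart and outside its RefSeq span.

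Other genes had outer peaks of the same sign. Sowahb had -3.40 and -3.25 in peaks of 361 bp each, the latter 120 bp before the gene end (authors' deposited table). Mycl, a member of the Myc family, had -2.82 and -3.03, Aak1, a kinase of endocytosis, -3.03 and -2.64, and Gm14296 -4.52 and -3.60 in the authors' deposited table. Aak1 also has a wider peak of 1169 bp further downstream, at -2.29 in the authors' deposited table. Genes positive at both places had smaller values: Cux1, a homeobox factor, with 1.31 and 1.40, and Osbpl9, an oxysterol-binding protein family gene, with 1.02 and 1.38, both in the authors' deposited table. The Cux1 peaks lie 18238 bp apart, the upstream one with a log10 FDR of -1.62. Narrow Osbpl9 peaks that overlap the outer ones were also positive but lower in the authors' deposited table. The one over the upstream peak had 0.75. The one over the downstream peak had 0.60 with a log10 FDR of -14.9, against -3.36 for the paired peak. Eri2 had 5 separate peaks at -1.39, -1.09, -1.24, -1.45 and -0.97 from upstream to downstream in the authors' deposited table, all negative, with the most upstream one at a log10 FDR of -1.10 and so not called.

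The gene name does not always tie peaks to a single RNA. Fgfr2 held the most peaks, 10, but its outer peaks lie 2594268 bp apart and outside the RefSeq gene, at -0.57 and 0.69 in the authors' deposited table. Cdc37l1 had its outer peaks 10222 bp apart, at -1.21 and, not called, -0.67 (authors' deposited table). Ccdc167 had 1.11 upstream and -1.08 downstream in the authors' deposited table, annotated to a transcript subject to nonsense-mediated decay. The peaks of Insr, Strbp and Gm14296 were annotated to transcripts of this type as well. Of the 1092 matched genes 873 had both peaks within the RefSeq span, and 971 of 1099 pairs were annotated to the same transcript. In these sets the median difference was 0.85 and 0.77. Most pairs, 1005, had their downstream peak on a protein-coding transcript.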

How the data were processed

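A single deposited table served as the source, with a line for each peak in which the authors had already set Mettl3-deficient against wild-type liver. HISAT2 2.1.0 and mm10 are the tool and build in the submitters' processing notes. For the peak caller and the comparison's settings, the sources used here give nothing. The columns used hold, per the file headers, the authors' log2 fold change and the log10 of its FDR, a score whose lowest value is -434. The deposited p-value column was not used.

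Peaks without a gene name (189), whose last cells stand in another order, were left out, and 23 of the 7207 narrow 3′ UTR entries repeated the same coordinates and were counted once. The widest member peak was 996 bp and the narrowest 3′ UTR peak outside the limit 1002 bp. Within 100 bp of this limit, the 3′ UTR peaks inside had a median log2 fold change of -1.125 (n = 198) and those outside one of -1.11 (n = 170).

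The strand was read from the deposited distances, as the one that gives all peaks of a transcript the same start within 2 bp, and otherwise from the RefSeq promoter table. Both sources gave a strand for 829 genes with pairs and were equal in 829. The upstream peak was the one that ends first and the downstream peak the one that starts last, so the pair does not overlap. The selection was tested on simulated data. Alternatives varied the FDR, the width, the fold change, the gap, the annotation and the choice of pairs.

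The members and lists were chosen with earlier results of these data known. Named genes had both peaks called and a RefSeq symbol: the 8 largest and 4 most negative differences, the 4 lowest pairs with both negative and the 4 highest with both positive, and up to 3 genes per list by FDR. Among genes with at least 4 separate peaks, the 4 with the most peaks, overlapping ones included, were added whether called or not. Onecut2, Elovl6, Acsl1 and list members without both peaks called were named after their values were seen. A gene that the rule names is not reported here. No peak sequence is shown, since no genome was used here. Depth is unknown. Python 3.11.15, numpy 2.4.6, pandas 2.3.3, scipy 1.17.1 and matplotlib 3.10.9 were used.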

Additional observations from a re-analysis of the deposited data

How the results depend on the processing

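Of 128 values of 10 results under 17 alternatives, 100 stayed within the 95% interval of the value reported, 28 moved outside it, and the median difference kept its sign in all. After seeing the data, 6 of the alternatives were chosen. Some of the 100 could not move. Taking the median of all listed peaks from every value leaves differences within a gene unchanged. A minimum gap of 200 bp leaves pairs 1000 to under 5000 bp apart as they were. The share of genes higher downstream was 75.0% with both peaks at an FDR of 0.01, 74.9% with called changes of at least 0.5, and 74.4% with both peaks called at 0.05. The called share was 75.8% upstream and 59.9% downstream at an FDR of 0.01, and 67.4% and 48.5% at 0.001. At 0.001 the negative share of called peaks was 81.1% upstream and 54.6% downstream, and 33.7% of pairs were negative and then positive. With peaks of at most 500 bp, the called shares were 78.9% and 65.3% and the negative shares 68.2% and 36.2%, so whether most called downstream peaks were negative depended on the setting. With changes of at least 0.5, the upstream negative share was 79.6% and the median difference at gaps of 1000 to under 5000 bp 1.63. In genes with exactly 2 peaks, 4.32% of pairs were positive and then negative. With the downstream peak 300 bp or more before the gene end, the median difference was 0.42, the downstream value was higher in 64.9% and 21.4% of pairs were negative and then positive. With the downstream peak at least as wide, these were 0.30, 61.8% and 25.3%, with 9.34% in the reverse order. With the lower FDR downstream, they were 0.01, 50.7% and 15.4%, with 12.0% in the reverse order. For the last set the difference is not distinguishable from 0. The cause of these shifts was not tested. No paired analysis was possible because the table used holds no value per sample, and for the same reason no replicate could be left out; depth and the spread between mice remain unknown.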
